A study of Mus musculus with 23 samples.

Results

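CC036F1 hosts are the F1 offspring of C57BL/6J and CC036/UncJ mice, and their MC38 tumors are described here against those of the other non-responder (NR) lines. The labels placed 4 tumors in CC036F1, 4 in CC079F1 (C57BL/6J x CC079/TauUncJ) and 3 in CC080F1 (C57BL/6J x CC080/TauUncJ), so that 11 of the 23 tumors of the series entered the comparison. CC036/UncJ, CC079/TauUncJ and CC080/TauUncJ belong to the Collaborative Cross, a panel of inbred mice in which the genomes of 8 founder strains are shuffled. Every host thus carried a C57BL/6J copy of its genome beside the copy of its Collaborative Cross line.

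MC38 is a colon carcinoma cell line of C57BL/6 origin. In all 3 lines the cells were placed under the skin of female mice aged 8 to 12 weeks, and at a tumor size of 75 to 110 mm3 each mouse was given 200 µg of an isotype control antibody (2A3) or of an antibody against PD-1 (aPD1, 29F.1A12). Tumors were collected 48 hours later and poly(A) RNA of the whole piece was sequenced. CC036F1 had 2 isotype and 2 aPD1 tumors, CC079F1 had 2 and 2, and CC080F1 had 2 isotype tumors and 1 aPD1 tumor. That these lines did not respond to aPD1 comes from the study's text, as the labels do not give it. The tumor cells were the same in all hosts, so a host line differs in the stroma, vessels and leukocytes that it supplies and in what these do to the tumor cells. In bulk RNA, fewer cells of a type and less RNA per cell cannot be told apart.

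A solid tumor holds cancer cells, fibroblasts that lay down collagen, endothelial cells that line its vessels, and leukocytes, among which macrophages are often the most abundant in MC38. Where oxygen is short, hypoxia-inducible factors are stabilized and raise the transcription of glucose transporters, glycolytic enzymes and Vegfa, the main growth factor of blood vessels. Interferon-gamma from T cells and natural killer (NK) cells raises antigen presentation genes, guanylate-binding proteins and the PD-1 ligand Cd274.

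Library totals were 17134304 to 63474809 expected counts in CC036F1 and 15276128 to 65776443 in the other NR tumors, with 1 of 4 and 3 of 7 libraries in the shallow class. Shisal2b, a gene of MC38 cells, had 463 to 644 normalized counts in CC036F1 and 496 to 1006 in the other tumors, and its difference did not pass the test (DESeq2 adjusted p = 0.725). Glycam1, a gene of lymph node vessels, had counts above 0 in 2 of the 11 tumors, 1 aPD1 tumor of CC079F1 and the aPD1 tumor of CC080F1, and in 0 of the CC036F1 tumors. These 2 tumors also held the most B cell transcripts.

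Host lines were compared over the 11 tumors with antibody as a term. Genes that passed in CC036F1 tumors included higher glycolysis and hypoxia genes and lower endothelial, fibroblast and adipocyte genes, while 0 of 11 T cell genes passed the test. Of 17837 genes with an adjusted p, 1833 (10.3%) passed at a DESeq2 adjusted p under 0.05, with 856 (4.8%) higher and 977 (5.48%) lower in CC036F1. The median log2 difference over all genes with an adjusted p was -0.003. Lower genes made up 417 of the 539 calls with an absolute log2 difference of at least 1. For 812 calls the 4 CC036F1 tumors lay wholly above or below the other 7, which were 411 higher (2.3% of genes tested) and 401 lower (2.25%). In 285 of these 812, CC036F1 also lay apart from all 12 tumors of the responder (R) lines. The fit set 1 line against 2 lines and counted tumors of a line as independent, so the p-values measure the spread between tumors and not that between lines. Isotype tumors alone gave 314 calls, and leaving out CC036F1 isotype replicate 2 or aPD1 replicate 2 gave 1174 or 1153.

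Among protein-coding calls without overlap whose normalized counts averaged 100 or more, Hal showed the largest higher value in CC036F1. Hal encodes histidine ammonia-lyase, the first enzyme of histidine breakdown. Its normalized counts were 226 and 298 in the isotype tumors and 380.0 and 542 in the aPD1 tumors, against a lowest, median and highest of 0, 7.31 and 38.4 in the other NR tumors. Errors of log2 differences are standard errors throughout. The groups stood far apart, with a log2 difference of 5.05 ± 0.98 and a DESeq2 adjusted p of 2.07e-05. The R tumors held 45.2 to 929 normalized counts, a range that takes in all CC036F1 tumors and lies above all CC079F1 and CC080F1 tumors.

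Slc7a2, a transporter of arginine and other cationic amino acids, had 1138 and 2343 in the isotype tumors and 2038 and 8626 in the aPD1 tumors, against 192, 345 and 538 (lowest, median and highest) in the other tumors. All CC036F1 tumors were above all others, aPD1 replicate 2 by the widest margin, and the log2 difference was 3.04 ± 0.48 with a DESeq2 adjusted p of 4.24e-08. The R tumors reached 312 to 1584 normalized counts. Mgl2, a lectin of macrophages and dendritic cells, had 549 and 506 in the isotype tumors and 292 and 1860.1 in the aPD1 tumors, against 104, 137 and 247 in the other tumors, with a log2 difference of 2.23 ± 0.51 and a DESeq2 adjusted p of 4.98e-04. Without CC036F1 aPD1 replicate 2 the differences of Slc7a2 and Mgl2 were 2.37 and 1.32 on the log2 scale, and both passed. Against CC080F1 alone Mgl2 did not pass (log2 difference 1.79, DESeq2 adjusted p = 0.179).

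The remaining higher genes ranged in log2 difference from 1.28 for Nfil3, a transcription factor of lymphoid and other cells, to 2.33 for Cdsn, an adhesion protein of the outer skin. Between them lay Car6, a secreted carbonic anhydrase (2.26), Car9, a membrane carbonic anhydrase induced by hypoxia (1.45), Cox6a2, a subunit of cytochrome c oxidase known from muscle (1.38), Gadd45a, a stress response gene (1.37), and Ier3, an immediate early gene (1.31). Nfil3 had 455 and 737 in the isotype tumors and 624 and 1136 in the aPD1 tumors, against 228, 268 and 378 in the other tumors. Ier3 had 672 and 871 in the isotype tumors and 1184 and 2046 in the aPD1 tumors, against 352, 448 and 521. Without CC036F1 aPD1 replicate 2 the log2 differences of Cdsn and Car6 were 1.56 and 1.53, and both passed. In Nfil3 and Ier3 the lowest CC036F1 tumor was the shallow isotype replicate 1, and the highest was aPD1 replicate 2.

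On the lower side, Cfd, the complement protease adipsin that fat cells secrete, differed most. Its normalized counts were 0 and 0 in the isotype tumors and 1.1 and 3.22 in the aPD1 tumors in CC036F1, against 10.1, 150.3 and 633 in the other tumors, a log2 difference of -7.86 ± 1.11 with a DESeq2 adjusted p of 6.20e-10, and -8.58 without CC036F1 aPD1 replicate 2. The other tumors themselves spread widely, and the 2 lowest were the isotype tumors of CC079F1. Aplnr, the receptor for apelin on endothelial cells, had 44.1 and 21.9 in the isotype tumors and 6.07 and 10.2 in the aPD1 tumors, against 145, 161 and 205. This was a difference of -3.27 ± 0.35 with a DESeq2 adjusted p of 3.21e-17, and the R tumors, at 62.6 to 254, also lay above all CC036F1 tumors. Mgll, which encodes monoacylglycerol lipase, had 69.1 and 31.4 in the isotype tumors and 28.2 and 26.8 in the aPD1 tumors, against 166, 195 and 302, with a difference of -2.62 ± 0.25 and a DESeq2 adjusted p of 1.77e-21.

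Car3 (carbonic anhydrase 3) and Fabp4 (a fatty acid carrier) had log2 differences of -4.51 and -2.60. Tnxb (the matrix protein tenascin-X), Lox (lysyl oxidase, which crosslinks collagen) and Ccdc80 (a secreted matrix protein) had -2.39, -2.13 and -2.08. Serpina3n, a protease inhibitor, had -2.98 and Ednrb, an endothelin receptor, -2.06. Without CC036F1 isotype replicate 1 the differences of Lox and Ednrb were -2.79 and -2.66. For Lox, isotype replicate 2 of CC036F1 was far below its group, at 136 and 12.5 in the isotype tumors and 193 and 62.3 in the aPD1 tumors, against 238, 395 and 588 in the other tumors. Of the genes named by this rule, Lox did not pass against either other line alone, nor did Car9 against CC079F1 alone or Mgl2 and Gadd45a against CC080F1 alone, and Car9 and Cdsn did not pass without the 2 tumors with Glycam1 counts (DESeq2 adjusted p of 0.0546 to 0.179 in these fits). In isotype tumors alone Hal, Cdsn, Car9, Car3, Lox and Ednrb did not pass (0.0509 to 0.283), and in aPD1 tumors alone Car6 did not (DESeq2 adjusted p = 0.134).

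**Figure D1:**
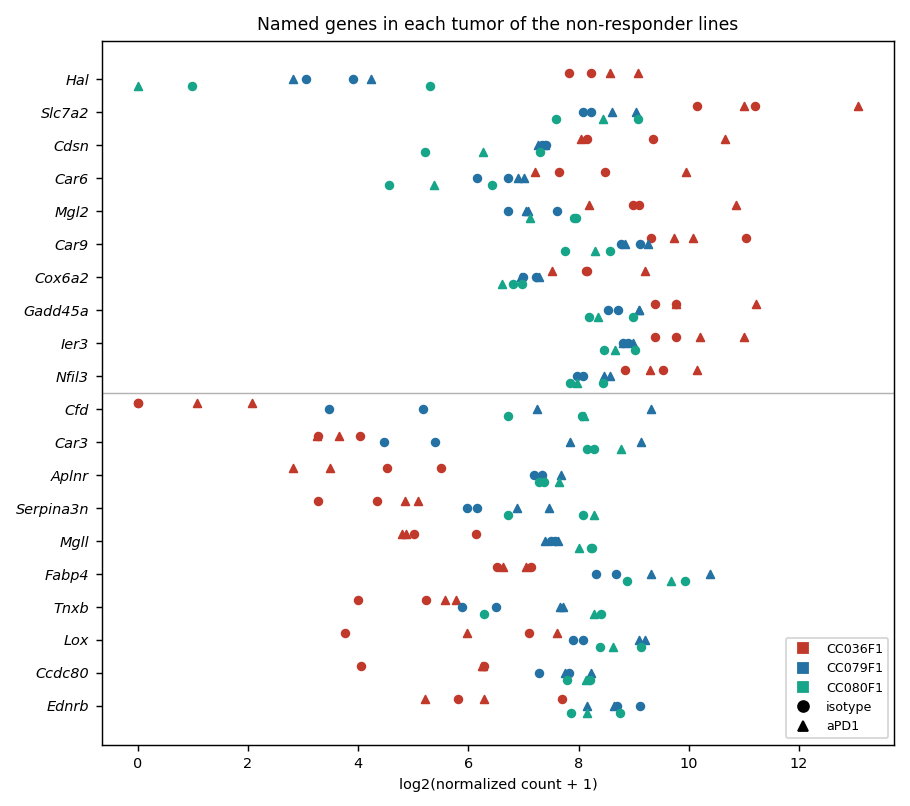
Each point is a tumor, placed by its log2(normalized count + 1) on the horizontal axis, with the 10 higher genes above the line and the 10 lower genes under it, colors for host lines, circles for isotype and triangles for aPD1. In every row the 4 red CC036F1 points lie on one side of the 7 others, since genes were named only if they did, and the widest gaps are those of Hal and Aplnr.

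Genes of glycolysis and the hypoxia response were higher in CC036F1 tumors. Of 15 measured list genes, 14 passed as higher and 0 as lower, against 4.8% of all genes tested, and the list's median log2 difference was 0.67, against -0.003 over all genes with an adjusted p. In 12 of the 14, CC036F1 tumors did not overlap the other NR tumors, and in 6 they also lay above every R tumor. Of all genes tested, 411 (2.3%) passed as higher without overlap, and 125 of these also lay above every R tumor. Slc2a1, the glucose transporter Glut1, had 10259.6 and 14161 in the isotype tumors and 14032 and 14092 in the aPD1 tumors, against 3767, 6194 and 7358 (lowest, median and highest) in the others, with a log2 difference of 1.09 ± 0.12 and a DESeq2 adjusted p of 1.38e-15. Every CC036F1 tumor was above the highest of the R tumors, whose range was 3776 to 8619.5. Bnip3, a mitochondrial protein of hypoxic cells, had 8063 and 11324 in the isotype tumors and 10451 and 11345 in the aPD1 tumors, against 3089.8, 5274 and 5623, with a difference of 1.04 ± 0.13 and a DESeq2 adjusted p of 4.58e-12.

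Car9 had 635 and 2098 in the isotype tumors and 846 and 1073 in the aPD1 tumors, against 214, 437 and 615, with a difference of 1.45 ± 0.39 and a DESeq2 adjusted p of 0.00406. The highest value was that of isotype replicate 2, and the lowest CC036F1 value was close to the highest of the others. Vegfa, the vessel growth factor, had 14979.8 and 17813 in the isotype tumors and 18733 and 18566 in the aPD1 tumors, against 7985, 10976 and 12416, with a difference of 0.68 ± 0.10 and a DESeq2 adjusted p of 8.65e-10. Among the glycolytic enzymes, Hk2 (hexokinase 2) differed by 0.79, Aldoa (aldolase) by 0.68, Pgk1 (phosphoglycerate kinase) by 0.67, Ldha (lactate dehydrogenase) by 0.47 and Gapdh by 0.21 on the log2 scale. Adm (adrenomedullin) was the list gene that did not pass, at 0.53 ± 0.26 with a DESeq2 adjusted p of 0.204. Leaving out any single tumor kept 12 to 14 of the 15 genes past the test, aPD1 tumors alone gave 13 and isotype tumors alone 9. Without the 2 tumors with Glycam1 counts, 11 passed.

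The promoters of the 3 list genes with the largest differences are shown since the list moved together. Each is a RefSeq window (GRCm38.p6) from 250 bases before to 50 after a transcription start, and capitals mark ACGTG or GCGTG, on either strand, the core letters known for hypoxia-inducible factor binding; ACGTG also lies within the E-box CACGTG.
Car9, chromosome 4, 43506776 to 43507075, plus strand: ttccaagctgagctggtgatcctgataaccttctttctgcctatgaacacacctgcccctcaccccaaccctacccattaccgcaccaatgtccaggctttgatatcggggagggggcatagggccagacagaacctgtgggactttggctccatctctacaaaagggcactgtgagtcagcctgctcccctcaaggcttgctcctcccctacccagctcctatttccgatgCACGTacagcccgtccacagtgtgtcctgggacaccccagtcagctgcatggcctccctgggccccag
Slc2a1, chromosome 4, 119108495 to 119108794, plus strand: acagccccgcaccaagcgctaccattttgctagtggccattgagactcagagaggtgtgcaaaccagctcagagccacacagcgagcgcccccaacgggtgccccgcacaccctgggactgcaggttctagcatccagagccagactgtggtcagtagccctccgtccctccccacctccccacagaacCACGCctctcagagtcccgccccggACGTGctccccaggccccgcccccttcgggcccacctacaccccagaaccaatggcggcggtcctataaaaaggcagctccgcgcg
Bnip3, chromosome 7, 138909457 to 138909756, minus strand: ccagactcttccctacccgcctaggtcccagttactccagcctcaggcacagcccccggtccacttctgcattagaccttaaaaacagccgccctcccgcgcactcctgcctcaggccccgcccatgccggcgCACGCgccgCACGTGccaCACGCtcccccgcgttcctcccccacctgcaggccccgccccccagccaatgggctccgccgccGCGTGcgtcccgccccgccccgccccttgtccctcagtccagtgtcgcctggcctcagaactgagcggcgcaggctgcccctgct
The windows held 1 match for Car9, 2 for Slc2a1 and 5 for Bnip3, where the CACGTG counts as 2, 1 on each strand. Of 21 windows of the 14 list genes in the table, 18 (85.7%) held a match, and of all 32851 windows 43.8% did. These shares use no tumor values and would be the same for this list whatever the tumors showed, so they do not bear on CC036F1. A match is letters only, and binding was not measured.

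Endothelial genes were lower in CC036F1. All 7 genes measured passed as lower, against 5.48% of all genes tested, with a median log2 difference of -1.16, and in all 7 the groups did not overlap. Lower calls without overlap were 2.25% of all genes tested. Tek, the angiopoietin receptor Tie2, had 17.3 and 23.5 in the isotype tumors and 13.8 and 19.9 in the aPD1 tumors, against 61.3, 89 and 113 in the others, with a difference of -2.18 ± 0.27 and a DESeq2 adjusted p of 1.65e-12. Kdr, the receptor through which Vegfa acts on vessels, had 501 and 332 in the isotype tumors and 309.8 and 211 in the aPD1 tumors, against 668, 757 and 1268, with a difference of -1.28 ± 0.18 and a DESeq2 adjusted p of 8.24e-10. Pecam1 (CD31), a junction protein of endothelium, had 869 and 673 in the isotype tumors and 647 and 632 in the aPD1 tumors, against 1119, 1309.7 and 1442, with a difference of -0.87 ± 0.10 and a DESeq2 adjusted p of 2.27e-16. In each of the 3 genes all CC036F1 tumors were also below all R tumors. The summed count of the list was 1877 to 3435 in CC036F1, 4378 to 6234 in the other NR tumors and 3644 to 6686 in R tumors.

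The 7 endothelial genes passed with any single tumor left out, against CC079F1 alone, against CC080F1 alone, and without the 2 tumors with Glycam1 counts. In isotype tumors alone 6 passed. The lymphatic receptor Flt4 (VEGFR3) had 76.8 and 63.5 in the isotype tumors and 44.7 and 31.7 in the aPD1 tumors, against 172, 207 and 287, with a difference of -2.02 ± 0.23 and a DESeq2 adjusted p of 9.54e-16.

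Fibroblast genes were lower in 7 of 9 cases, against 5.48% of all genes tested, with a median log2 difference of -0.84. Col1a2, a chain of type I collagen, had 1606 and 223 in the isotype tumors and 1526 and 793 in the aPD1 tumors, against 2324, 3772 and 7156, with a difference of -2.02 ± 0.48 and a DESeq2 adjusted p of 9.95e-04. Isotype replicate 2 was the lowest tumor by far, but all 4 lay below the others. Pdgfrb, a growth factor receptor of fibroblasts and pericytes, had 2391 and 2484 in the isotype tumors and 1984 and 1365 in the aPD1 tumors, against 2809.8, 3043 and 3879.8, with a difference of -0.63 ± 0.13 and a DESeq2 adjusted p of 4.09e-05. Dcn (decorin) and Pdgfra did not pass, at -0.14 ± 0.09 and -0.17 ± 0.18. Over 19 collagens, 9 passed as lower and 0 as higher, against 5.48% and 4.8% of all genes tested, with a median of -0.48. Isotype tumors alone gave 0 of 9 fibroblast genes and 1 of 19 collagens, and without the 2 tumors with Glycam1 counts the counts were 4 and 3. The summed fibroblast list was 69530 to 141600 in CC036F1, 138100 to 185500 in the other NR tumors and 57390 to 186500 in R tumors. The R range thus took in all CC036F1 tumors. Against the 12 R tumors 4 fibroblast genes passed as lower, with a median of -0.14, in a fit with 2003 lower calls over all genes.

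Adipocyte genes were lower in 5 of 6 cases, against 5.48% of all genes tested, with a median log2 difference of -5.22. Besides Cfd, Fabp4 had 140.1 and 90.9 in the isotype tumors and 131 and 98.2 in the aPD1 tumors, against 316, 639 and 1332, with a difference of -2.60 ± 0.37 and a DESeq2 adjusted p of 9.77e-10. Adipoq (adiponectin) had 0 and 0 in the isotype tumors and 2.21 and 5.9 in the aPD1 tumors, against 0, 31.6 and 108, so that the groups overlapped. The summed list ran from 92.5 to 148 in CC036F1 and from 332 to 2183 in the other tumors, and skeletal muscle genes, summed, from 40.0 to 138 and from 36.8 to 7353. How much fat, muscle or skin lay beside a tumor piece was not measured, and its part in the matrix and fat genes was not tested.

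Among epithelial genes, Krt18, a keratin of simple epithelia, was at 0 in all 4 CC036F1 tumors and had 0, 13.5 and 72.1 in the others, and passed as lower (DESeq2 adjusted p = 9.09e-04). Against the floor of 3 counts over the 4 CC036F1 libraries, it was at least 49-fold lower than the mean of the others. Krt19 passed as lower at -5.26 ± 1.79 in DESeq2 but not in edgeR (adjusted p = 0.0505) or without the 2 tumors with Glycam1 counts (DESeq2 adjusted p = 0.24). Cdh1 (E-cadherin) had 184 and 396 in the isotype tumors and 209 and 761 in the aPD1 tumors, against 103, 164 and 208, and was higher by 1.26 ± 0.40 with overlapping groups, but did not pass without those 2 tumors (DESeq2 adjusted p = 0.177).

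**Figure D2:**
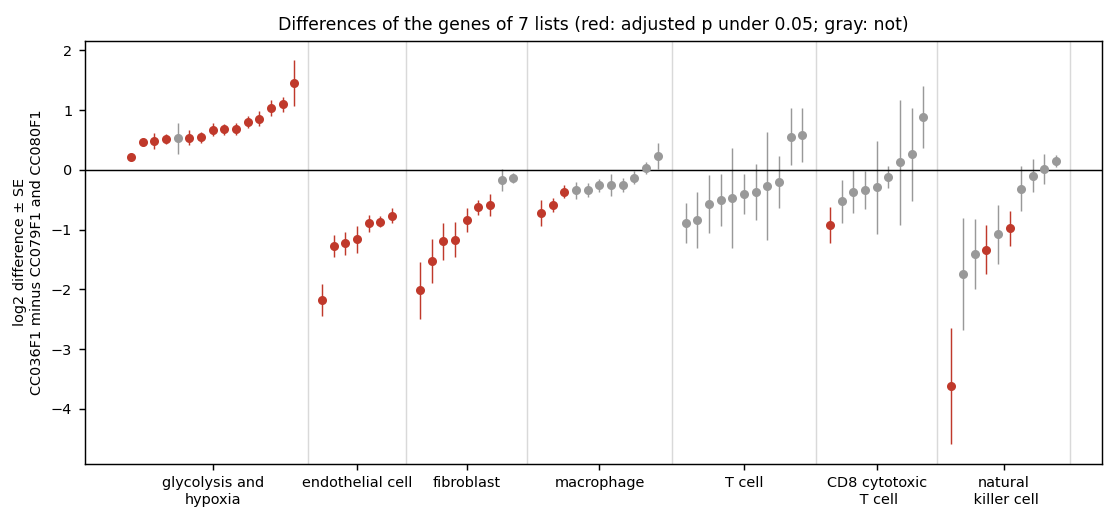
Each point is a gene of 1 of 7 lists, with its log2 difference of CC036F1 from the other NR tumors and its standard error on the vertical axis, in red where the DESeq2 adjusted p was under 0.05. The 15 glycolysis and hypoxia genes lie above 0 and the 7 endothelial genes below it, while the T cell genes are gray on both sides.

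Over 15 leukocyte lists, 18 of 103 genes passed (17.5%, against 10.3% of all genes tested), 5 as higher and 13 as lower, in a grouping made after the values were seen. In edgeR these were 2 and 5, and without the 2 tumors with Glycam1 counts 2 and 7. Of 11 T cell genes 0 passed in DESeq2 and 0 in edgeR, with 1 at an unadjusted p under 0.05 in each and a median log2 difference of -0.40, which was -0.03 without the 2 tumors with Glycam1 counts. Against CC079F1 alone 1 T cell gene was higher (median 0.25), against CC080F1 alone 3 were lower (median -0.80), and the deeper libraries gave 3 lower (median -0.86). Cd3e, a chain of the T cell receptor complex, had 53.7 and 42.3 in the isotype tumors and 70.1 and 35.4 in the aPD1 tumors, against 3.51, 37.6 and 182, and the spread over the other tumors was wider than the difference of -0.47 ± 0.84. Cd8a was 49.4 to 229.7 in CC036F1 and 34.7 to 451 in the others. Of 9 cytotoxic genes, Gzma (granzyme A) passed as lower at -0.92 ± 0.30 (DESeq2 adjusted p = 0.0298). It did not pass in edgeR (adjusted p = 0.112) or in DESeq2 without the 2 tumors with Glycam1 counts (adjusted p = 0.139). Of 7 regulatory T cell genes 0 passed in DESeq2 or edgeR, with 1 and 0 at an unadjusted p under 0.05.

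Macrophage genes were lower in 3 of 11 cases, against 5.48% of all genes tested, with a median of -0.26. Csf1r, the receptor for the macrophage growth factor M-CSF, had 7253 and 4571 in the isotype tumors and 5835 and 4652 in the aPD1 tumors, against 7688, 8256 and 9901, with a difference of -0.59 ± 0.11 and a DESeq2 adjusted p of 1.38e-05. All CC036F1 tumors were below all other tumors of the series for Csf1r and for the complement subunit C1qa (-0.37 ± 0.11). Adgre1 (F4/80) did not pass, at -0.26 ± 0.11. The third call, the lipid carrier Apoe (-0.72 ± 0.22), did not pass without the 2 tumors with Glycam1 counts (DESeq2 adjusted p = 0.187), nor did C1qa in edgeR (adjusted p = 0.0512). Without CC036F1 isotype replicate 1 or aPD1 replicate 1 there were 7 or 6 macrophage calls, and without aPD1 replicate 2 there was 1.

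Of 6 monocyte genes 2 were higher, Chil3, a chitinase-like lectin (2.62 ± 0.88), and Fn1 (fibronectin, 0.37 ± 0.11), and 1 lower, Vcan (the proteoglycan versican, -0.45 ± 0.12). Of 6 genes of type 2 conventional dendritic cells 2 were higher, Mgl2 and the costimulatory ligand Cd80 (0.79 ± 0.27), and 1 lower, Sirpa (-0.24 ± 0.09), which encodes the receptor for CD47. Of these calls Fn1, Cd80 and Sirpa did not pass in edgeR (adjusted p of 0.0645, 0.125 and 0.105), and Chil3 and Cd80 did not pass in DESeq2 without the 2 tumors with Glycam1 counts (adjusted p of 0.283 and 0.138). Without CC036F1 aPD1 replicate 2, 0 monocyte genes passed and 1 of the dendritic cell genes did. Among all genes tested, 4.8% passed as higher and 5.48% as lower.

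NK cell genes were lower in 3 of 10 cases, against 5.48% of all genes tested, which were Ncr1 (-0.98 ± 0.30), Klra7 (-1.34 ± 0.41) and Klra3 (-3.62 ± 0.97). Ncr1, the activating receptor NKp46, had 71 and 39.2 in the isotype tumors and 29.8 and 23.6 in the aPD1 tumors, against 49.3, 81.1 and 90.3. In edgeR the adjusted p-values of these 3 genes were 0.0946, 0.0822 and 0.0589. Without the 2 tumors with Glycam1 counts Klra3 passed, while Ncr1 and Klra7 did not (DESeq2 adjusted p of 0.183 and 0.201), and there was also 1 call without CC036F1 aPD1 replicate 1 or CC080F1 aPD1 replicate 1. Klra genes are near-identical copies that differ between mouse strains, and the split of shared reads makes their values uncertain. Klrk1 and Eomes, also of NK cells, had -0.10 ± 0.27 and 0.01 ± 0.25.

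B cell genes were lower in 2 of 9 cases, against 5.48% of all genes tested, and in 1 case without CC036F1 aPD1 replicate 1 or 2. Cd79b, a signaling chain of the B cell receptor, had 0 and 3.92 in the isotype tumors and 3.31 and 1.07 in the aPD1 tumors, against 7.91, 41.6 and 322, with a difference of -5.00 ± 0.99 and a DESeq2 adjusted p of 2.84e-05. Every other tumor of the series was higher, with 13.4 to 173 in R tumors. Its partner chain Cd79a had 9.59 and 32.9 in the isotype tumors and 13.3 and 19.3 in the aPD1 tumors, against 4.51, 19.8 and 291, with overlapping groups. Ighm (immunoglobulin mu) had a difference of -1.38 ± 0.43. The summed B cell list was 563 to 773 in CC036F1 and 657 to 5953 in the others, with the top values in the 2 tumors with Glycam1 counts, and Cd79b and Ighm passed without these, while the list's median moved from -0.78 to 0.43.

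Among immune genes of other lists, Pdcd1lg2, which encodes the PD-1 ligand PD-L2, had 32.6 and 87.8 in the isotype tumors and 80.1 and 260.3 in the aPD1 tumors, against 4.51, 18 and 27.7, with a difference of 2.61 ± 0.48 and a DESeq2 adjusted p of 6.27e-06. Cd274 (PD-L1) had 1562 and 2263 in the isotype tumors and 3903 and 3266 in the aPD1 tumors, against 1049.8, 1183 and 2259, with overlapping groups and a difference of 0.86 ± 0.28 (DESeq2 adjusted p = 0.0284), which did not pass without the 2 tumors with Glycam1 counts (adjusted p = 0.271). Pdcd1lg2 and Cd274 were the 2 calls among 11 T cell checkpoint genes, with 0 lower and a list median of -0.19. Of 29 chemokines, 4 were higher and 3 lower. The shares over all genes tested, for these and the next lists, were 4.8% higher and 5.48% lower. Ccl7, which draws monocytes, had 1011 and 1235 in the isotype tumors and 1206 and 2351 in the aPD1 tumors, against 637, 799 and 977, with a difference of 0.84 ± 0.17 and a DESeq2 adjusted p of 9.35e-05. Cxcl1, a neutrophil chemokine, differed by 1.11 ± 0.18, Ccl2 by 0.49 ± 0.14 and Ccl17 by 1.95 ± 0.60. Of 7 neutrophil genes fitted, 0 passed in DESeq2 or edgeR, with a median of 0.03 in DESeq2. The stromal chemokines Cxcl12 (-0.84 ± 0.19) and Cxcl14 (-1.31 ± 0.24) were lower, as was Ccl11 (-1.52 ± 0.54). In edgeR Ccl11 and Ccl17 did not pass (adjusted p of 0.146 and 0.0847), nor did these 2 or Ccl2 in DESeq2 without the 2 tumors with Glycam1 counts (0.0827, 0.111 and 0.131). Fcgr2b, the inhibitory receptor for immunoglobulin G, was higher by 0.77 ± 0.14, and of 7 Fc receptors 2 were higher and 0 lower. Of 14 genes of TNF and interleukin-1 signaling 3 were higher, namely Il1rn, the interleukin-1 receptor antagonist (1.05 ± 0.29), the cytokine Il1a (DESeq2 adjusted p = 0.00839) and Tnfaip3, an inhibitor of NF-kB (0.39 ± 0.08), and 1 was lower, the receptor Il1r1 (-0.75 ± 0.23). Il1a and Il1r1 did not pass in edgeR (adjusted p of 0.0501 and 0.0854) or in DESeq2 without the 2 tumors with Glycam1 counts (adjusted p of 0.13 and 0.144).

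Of the interferon-related lists, the interferon-gamma signature had 2 genes higher and 3 lower of 18, with a median of -0.06, and the antiviral interferon-stimulated genes 0 higher and 2 lower of 22, with a median of -0.09. For comparison, 4.8% of all genes tested passed as higher and 5.48% as lower. The calls of the former were Pdcd1lg2 and Cd274 as higher and Cd276 (-0.70 ± 0.24), Cmklr1 (-0.58 ± 0.14) and Psmb10 as lower, and those of the latter Ifit2 (-0.30 ± 0.09) and Ifih1 (-0.23 ± 0.08). Cd276, Ifit2 and Ifih1 did not pass in edgeR (adjusted p of 0.118, 0.0598 and 0.0721) or in DESeq2 without the 2 tumors with Glycam1 counts (0.249, 0.0953 and 0.126). Of 12 interferon-inducible HIN-200 genes, a family of DNA sensors on chromosome 1, 8 were lower and 0 higher, with a median of -0.69, and 4 passed in edgeR. Leaving out CC036F1 aPD1 replicate 2 gave 4 lower, and leaving out CC036F1 isotype replicate 2 or CC080F1 aPD1 replicate 1 gave 5. Ifi207 had 831 and 537 in the isotype tumors and 791 and 596 in the aPD1 tumors, against 929, 1161 and 1338, with a difference of -0.73 ± 0.13 and a DESeq2 adjusted p of 1.19e-06. These genes are close copies of each other, so that shared reads may be split wrongly. Of 11 genes of classical class I presentation 2 were higher and 1 lower. The lower one was Psmb10, an immunoproteasome subunit (-0.32 ± 0.10), which did not pass in edgeR (adjusted p = 0.0774) but passed without the 2 tumors with Glycam1 counts (DESeq2 adjusted p = 0.0409). H2-K1 and H2-D1 were higher by 0.39 ± 0.10 and 0.37 ± 0.10, and the non-classical H2-Q4, H2-Q6 and H2-Q7 by 0.38, 0.67 and 0.66, all with overlapping groups and reads shared among them, and none of these 5 passed without the 2 tumors with Glycam1 counts (DESeq2 adjusted p of 0.0577 to 0.285). Of 11 guanylate-binding proteins and 8 immunity-related GTPases, 0 passed in DESeq2 or edgeR, with medians of 0.42 and 0.44; at an unadjusted p under 0.05 there were 1 and 0 in DESeq2 and 5 and 3 in edgeR. Of 11 class II genes, 1 (H2-Oa) passed as lower, at -1.64 ± 0.51, and did not pass in edgeR (adjusted p = 0.0728) or in DESeq2 without the 2 tumors with Glycam1 counts (adjusted p = 0.462).

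**Figure D3:**
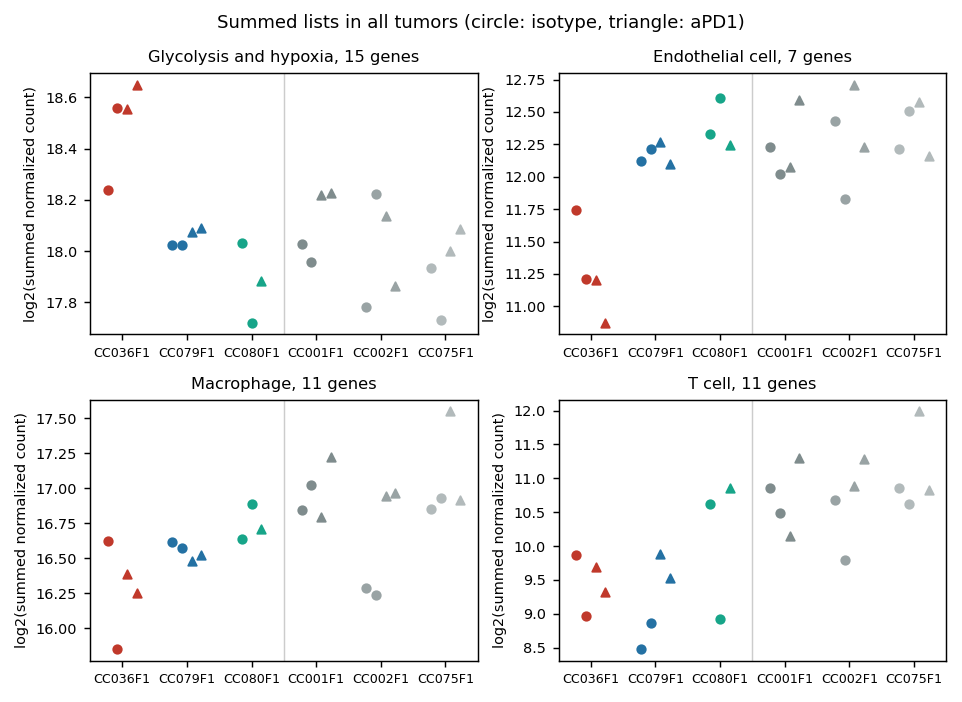
Each panel gives the log2 of the summed normalized count of a list on the vertical axis for every tumor of the 6 host lines, with NR lines left of the line, circles for isotype and triangles for aPD1. The CC036F1 tumors are the highest of the NR tumors for glycolysis and hypoxia and the lowest of all tumors for endothelial genes, and within the range of the other NR tumors for T cell genes.

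The ratio of Cxcl9 to Spp1 counts sets an interferon-induced chemokine of macrophages against osteopontin. It was 0.609 and 0.160 in the isotype tumors and 0.962 and 0.181 in the aPD1 tumors of CC036F1, and 0.0881 to 0.853 with a median of 0.284 in the other NR tumors. The groups overlapped, with means of 0.478 ± 0.383 (SD, n = 4) and 0.356 ± 0.251 (SD, n = 7). The log2 ratio differed by 0.314, less than the spread between tumors (two-sided exact permutation test, p = 0.673; the smallest p the design allows is 0.00606).

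Genes on in one group and off in the other were sought as at least 10 normalized counts in every tumor of one and at most 1 in every tumor of the other. No gene was on in CC036F1 alone, and 1 was off. H2-Ea-ps (chromosome 17, 34341959 to 34344645, GRCm38) encodes the alpha chain of the class II molecule H2-E and is annotated as a polymorphic pseudogene, and C57BL/6 mice are known not to express it. It had 0 counts in all 4 CC036F1 tumors, 293, 479, 766 and 929 normalized counts in CC079F1 and 3122, 1115 and 1512 in CC080F1. Against a floor of 3 counts over the 4 CC036F1 libraries, the mean of the other tumors was at least 2140-fold higher, and the DESeq2 adjusted p was 1.91e-20. All 12 R tumors also had 0, so transcripts of this gene set CC079F1 and CC080F1 apart from the other 4 lines, CC036F1 among them.

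Neighboring calls were grouped where 3 or more genes averaging at least 10 normalized counts changed in one direction by at least 1 on the log2 scale with starts at most 500 kb apart. The 492 calls past these limits of count and fold, 105 higher and 387 lower, gave 16 clusters of 53 genes in all. Of the clusters 2 were higher and 14 lower in CC036F1, and most of the calls that entered were lower too. The largest lay on chromosome 6 from 128849090 to 129057464 (GRCm38), within the NK gene complex, where 5 of 8 tested genes were lower and 0 higher. These were BC035044 (-3.16 ± 0.96), Clec2i (-2.86 ± 0.83), Clec2g, BC064078 (-2.12 ± 0.63) and Klrb1f (-1.78 ± 0.48). Clec2 genes encode ligands of Klrb1 receptors. Clec2g was at 0 in all CC036F1 tumors and at 0 to 44 in the others, with 1 of those at 0 as well, so that it was at least 30-fold lower against the floor of 3 counts over the 4 CC036F1 libraries. Klrb1f had 7.68 and 6.27 in the isotype tumors and 4.42 and 10.2 in the aPD1 tumors, against 17.8, 23.2 and 42.1. Of the 5 genes it alone had no overlap between CC036F1 and the other NR tumors. Without the 2 tumors with Glycam1 counts Clec2i and Clec2g passed, and BC035044, BC064078 and Klrb1f did not (DESeq2 adjusted p of 0.279, 0.0694 and 0.0991). In edgeR BC035044 and BC064078 did not pass (adjusted p of 0.0966 and 0.0928). BC035044 and Clec2i overlap on opposite strands, and the family shares sequence.

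On chromosome 11 from 48887422 to 49652739, 4 of 16 tested genes were lower, namely the interferon-inducible GTPase genes Gm5431 (-1.04 ± 0.17) and Gm12185 (-1.90 ± 0.56), Btnl9, a butyrophilin-like gene (-2.29 ± 0.30), and Flt4. Gm12185 was 95.9 to 173 in CC036F1, 455 to 879.9 in CC079F1 and 119.6 to 199.7 in CC080F1, so that CC036F1 and CC080F1 overlapped. Btnl9 had 51.8 and 19.6 in the isotype tumors and 18.2 and 17.2 in the aPD1 tumors, against 81.7, 123 and 163. On chromosome 7 from 18989554 to 19771016, 5 of 42 tested genes were lower and 3 higher, and 4 of the lower ones passed the fold limit, which were Gm10676 (-1.03 ± 0.34), Gpr4, a proton-sensing receptor of endothelium (-1.46 ± 0.41), Exoc3l2 (-1.65 ± 0.29) and Bcam, a laminin receptor (-1.97 ± 0.49). Without the 2 tumors with Glycam1 counts Gm10676, Gpr4 and Bcam did not pass (DESeq2 adjusted p of 0.191, 0.187 and 0.0971), and in edgeR Gm10676, Gpr4 and Pcdhgb4, of the next cluster, did not (adjusted p of 0.123, 0.0563 and 0.074). On chromosome 18 from 37720369 to 38284402, 5 of 26 tested genes were lower and 0 higher. Those past the fold limit were Pcdhgb4 (-1.73 ± 0.52), BC037039 (-1.11 ± 0.27), Pcdh1 (-1.37 ± 0.20) and Pcdh12, a protocadherin of endothelium (-1.69 ± 0.32). BC037039 is antisense within the protocadherin gamma genes, which share exons.

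Of the clusters of 3 genes, the one with the largest median difference lay on chromosome 8 from 40853828 to 40922308, a choice made after the values were seen. It held Slc7a2, the pseudogene Gm5345 (2.84 ± 0.73) and the noncoding Gm26584 (3.10 ± 0.69), all higher and without overlap, and Gm5345 did not pass without the 2 tumors with Glycam1 counts (DESeq2 adjusted p = 0.0778). Gm26584 overlaps Slc7a2 on the opposite strand, so reads of the 2 may not be separable if strand was not used in counting. The other higher cluster was of matrix metalloproteinases on chromosome 9, Mmp13 (1.52 ± 0.49), Mmp12 (2.21 ± 0.57) and Mmp8 (2.10 ± 0.61), each with overlapping groups. Of 5 tested genes in this span 1, Mmp3, was lower, at -2.30 ± 0.42, without overlap. Without the 2 tumors with Glycam1 counts Mmp3 passed, and Mmp13, Mmp12 and Mmp8 did not (DESeq2 adjusted p of 0.327, 0.0793 and 0.135). Cd300e, an activating receptor of monocytes in a lower cluster on chromosome 11, had 1.92 and 7.05 in the isotype tumors and 32 and 3.76 in the aPD1 tumors, against 34.8, 124 and 336, and 36 to 571 in R tumors.

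**Figure D4:**
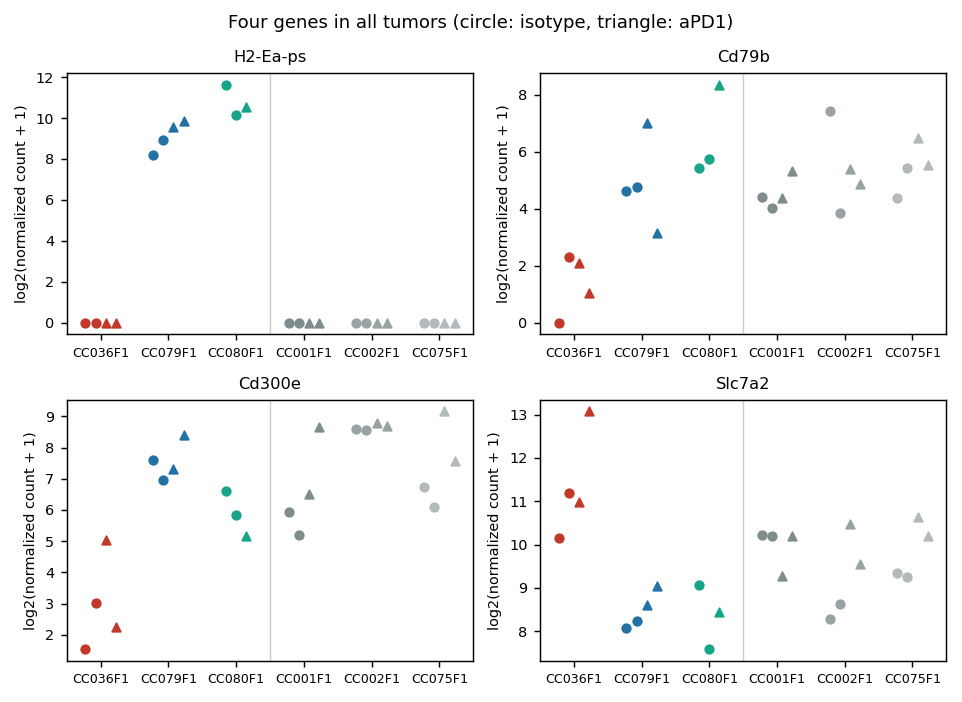
Each panel gives log2(normalized count + 1) of a gene on the vertical axis in every tumor of the 6 host lines, with NR lines left of the line, circles for isotype and triangles for aPD1. H2-Ea-ps is above 0 in CC079F1 and CC080F1 alone, Cd79b and Cd300e are lowest in CC036F1, and 3 of the 4 CC036F1 tumors hold the most Slc7a2.

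Set against all 19 other tumors, CC036F1 had 1052 higher genes (5.34% of those tested) and 1579 lower (8.02%), of which 1333 in all were also calls among NR tumors. In that fit 15 of 15 glycolysis and hypoxia genes were higher, 7 of 7 endothelial genes lower, and 5 of 11 T cell and 7 of 11 macrophage genes lower. Of the 19 tumors 12 were R tumors. Against these 12 alone, 9 T cell and 8 macrophage genes were lower, while among NR tumors 0 and 3 were. Lower calls over all genes were 2003 in the former fit and 977 in the latter. The list counts thus come from fits with unequal numbers of calls.

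Within CC036F1, aPD1 and isotype tumors were compared as values, without a test, since there were 2 of each. Of 11743 genes averaging 100 or more normalized counts, 47 (0.4%) were higher by at least 1 on the log2 scale in the mean with both aPD1 tumors above both isotype tumors, and 29 (0.247%) were lower in the same sense.

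Cxcl2, a neutrophil chemokine, had 49.9 and 40.8 normalized counts with isotype and 156 and 226 with aPD1, a difference of 2.04 in mean log2(count + 1). The same difference was 0.56 in CC079F1 and 0.17 in CC080F1, which had 1 aPD1 tumor. Mmp12, the macrophage elastase, had 823 and 3139 with isotype and 3783 and 10480.0 with aPD1 (1.97). Ccl8, a monocyte chemokine, had 272 and 249 with isotype and 452 and 1649 with aPD1 (1.72). Prl2c2, a prolactin family gene with near-identical copies, had 30.7 and 59.6 with isotype and 95 and 305 with aPD1 (1.97), and Klhl13 32.6 and 54.9 with isotype and 64.1 and 309.7 with aPD1 (1.71). In CC079F1 and CC080F1 the differences were 0.40 and 0.33 for Mmp12, 1.24 and 0.12 for Ccl8, 1.73 and 0.20 for Prl2c2, and -0.47 and 0.01 for Klhl13, so that in CC079F1 Prl2c2 and Ccl8 were also past 2-fold. In Mmp12, Ccl8, Prl2c2 and Klhl13 aPD1 replicate 2 was far above the other 3 tumors.

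Bmp5, a bone morphogenetic protein, had 127 and 328 with isotype and 65.7 and 46.2 with aPD1 (-1.87). Cilp, a matrix protein, had 3108 and 3097 with isotype and 1507 and 525 with aPD1 (-1.80), against differences of -0.21 in CC079F1 and 0.40 in CC080F1. Mfap4, of elastic fibers, had 239.8 and 159.9 with isotype and 82.3 and 37.6 with aPD1 (-1.80). Aspn (asporin) had 357 and 134 with isotype and 104 and 38.6 with aPD1 (-1.77). Pagr1a had 311 and 52.5 with isotype and 38.1 and 41.3 with aPD1 (-1.67), and there 1 isotype tumor carried the difference. In CC079F1 and CC080F1 the differences were -0.74 and 0.23 for Bmp5, -0.32 and 0.69 for Mfap4, -0.21 and -0.13 for Aspn, and in CC080F1 2.12 for Pagr1a, with the opposite sign.

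Over the lists, genes with a mean of at least 10 in CC036F1 were counted, for which both aPD1 tumors lay above both isotype tumors in 17.5% and below in 17% of all 15982 such genes. Of 26 chemokines 9 were higher in this sense and 2 lower, with a median change of 0.58. Il1rn had 675 and 1107 with isotype and 1979 and 2233 with aPD1, and Il1b 167 and 210.1 with isotype and 321 and 562 with aPD1. Of 9 fibroblast genes 0 were higher and 5 lower (median -0.55), of 18 collagens 1 was higher and 7 lower (median -0.35), and of 7 endothelial genes 0 and 4 (median -0.40). Past 2-fold there were 0 fibroblast genes either way, and 1 collagen higher and 0 lower. Of 13 genes of TNF and interleukin-1 signaling 6 were higher and 0 lower (median 0.34). Of 11 T cell genes 1 was higher and 1 lower, with a median of 0.06, against medians of 1.30 in CC079F1 and 1.05 in CC080F1, where 1 aPD1 tumor each had Glycam1 counts.

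**Figure D5:**
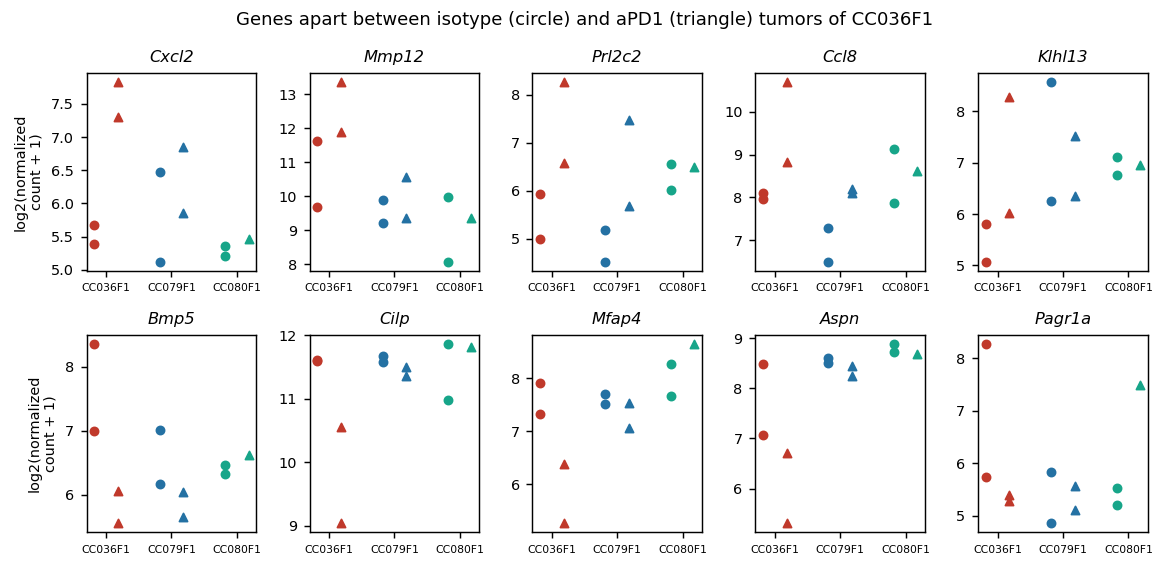
Each panel gives log2(normalized count + 1) of a gene on the vertical axis in each tumor of the 3 NR lines, with circles for isotype and triangles for aPD1. The 5 genes of the top row are higher and the 5 of the bottom row lower with aPD1 in CC036F1, as they were chosen to be, and the 2 aPD1 tumors of the line are wide apart in most panels.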

How the data were processed

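Per the labels and the study's methods, poly(A) libraries were mapped with Bowtie 1.2.3 to founder transcriptomes (GENCODE vM23, GRCm38), and the authors used gbrs to estimate reads per gene. Deposited were expected counts, unscaled for depth, which were rounded to whole numbers here. Reads shared by similar genes are split, so their values are less certain. Names and coordinates came from GENCODE vM21, which matched 26681 of 26869 genes.

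DESeq2 1.42.0 (Wald test, default options, antibody and host as terms) was run in R 4.3.3 on genes with at least 5 counts summed over the 11 tumors; 24552 were fitted, and 73 had no p by Cook's distance. Normalized counts are counts divided by DESeq2 size factors. Calls have a Benjamini-Hochberg adjusted p under 0.05. The script was tested on simulated data. Members, lists and naming rules were chosen with earlier results of these data known. Named genes were the 10 largest differences each way among non-overlapping protein-coding calls with a mean of at least 100, genes of the lists, the on/off genes, the 5 clusters with most genes (ties by median difference), and for the antibody the 5 largest each way; Cd300e and the metalloproteinases were added after their values were seen. Alternatives used edgeR 4.0.16 and limma 3.58.1. Labels call the replicates biological without saying whether they came from separate experiments, so p-values measure the spread between tumors.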

Additional observations from a re-analysis of the deposited data

Results flagged for a closer look

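Among the 20 named genes, 9 summed lists and the ratio, 60 groups were examined for a tumor that stood far from the others of its group, and 2 were found, where chance flags about 1 in 20 groups. Mgll in CC036F1 isotype replicate 1 was 69.1 normalized counts, above the 3 other CC036F1 tumors, and still below all 7 other NR tumors. Ccdc80 in CC036F1 isotype replicate 2 was 15.7 normalized counts, far below the 3 other CC036F1 tumors, which lay close together.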

How the results depend on the processing

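The count of 1833 genes became 1017 with edgeR, of which 1001 were shared. It became 3093 with limma voom, line being a random effect (within-line correlation -0.122). With 1 line against 2, that fit could not measure the spread between lines. The count was 1131 against CC080F1 alone, 314 in isotype tumors, 3388 against the 12 R tumors and 931 without the 2 tumors with Glycam1 counts. The last 2 and the fit to all 19 other tumors were added after seeing the data. Leaving out 1 tumor at a time gave 1153 to 2082 calls. The 812 non-overlapping calls became 309 in isotype tumors, 1235 in aPD1 tumors and 1349 in the deeper libraries, where fewer tumors have to be apart, and 747 to 1421 with 1 tumor left out; without CC036F1 isotype replicate 1 there were 1421. At 250 kb there were 9 clusters, against 16. The log2 ratio difference of 0.314 reversed to -0.200 against CC080F1 alone (exact permutation p = 0.857) and to -0.158 without CC036F1 aPD1 replicate 1 (exact permutation p = 0.833), and ranged from -0.158 to 0.704 with 1 tumor left out; the cause was not tested. Replicate numbers were not treated as pairs. The 10 correlations of replicate differences ran from -0.180 to 0.193, the highest being between the isotype and aPD1 tumors of CC036F1. Whether tumors of the same number were handled together was not tested. The replicate block gave 1734 calls, 789 of them non-overlapping. Some settings for named genes were added after seeing the data. Named genes kept their direction in all 440 alternatives and missed the threshold in 14, of which 6 in isotype tumors alone. They were named for not overlapping, so fits to the same tumors or parts of them had little room to reverse. Genes near a count of 10 rest on few reads in the 4 shallow libraries.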
